A study of Drosophila melanogaster with 9 samples.

Results

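The elements gypsy2, gypsy3, gypsy4, gypsy6, gypsy7, gypsy12 and accord are retrotransposons of Drosophila melanogaster, and small RNA reads mapping to them were followed through testes of different germline stage and Piwi genotype. They were picked by exact name, which gave 7 of the 117 elements in the tables of the stage libraries. The combined table of the aub and ago3 libraries lists 6 of them among its 86 elements, and gypsy7 is not listed there. All libraries came from hand-dissected testes. The spermatogonia group held 2 libraries of whole testes, 1 from bam mutants and 1 from bgcn mutants, labelled as early dividing germ cells. The spermatocyte group held 2 libraries, 1 from can mutants and 1 from sa mutants, labelled as primary spermatocytes, and these testes had been freed of their apical tips, where the mitotic cells lie. Single libraries of whole testes came from y w flies, from aub (N11/HN2) mutants and aub/CyO heterozygotes, and from ago3 (t2/t3) mutants and ago3/TM6 heterozygotes. CyO and TM6 are balancer chromosomes. The sources used here do not give the age of the flies or the alleles of bam, bgcn, can and sa. The tables hold transposons only, so neither the labelled cell types nor the loss of aub or ago3 could be checked against their own transcripts.

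Transposon-mapping reads numbered from 262757 (sa) to 580459 (bgcn) in the stage and y w libraries. Reads of the combined table, worked back from its normalised values, numbered 83953 for heterozygous and 8434 for mutant aub testes. For ago3 they numbered 102700 and 33018. Each stage group joins 2 different mutants, so a p-value between stages sets the stage difference against the spread between genotypes. Tip removal, genetic stock and stage differ together and cannot be told apart. In whole testes, fewer cells of a type and less RNA per cell cannot be told apart either. Bracketed ranges beside a share or ratio are exact 95% binomial bounds, which describe counting error alone.

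All 7 elements are long terminal repeat (LTR) retrotransposons of the Ty3/gypsy type, which copy themselves through an RNA intermediate and encode a Gag protein and a reverse transcriptase. Some elements of this type, the errantiviruses, also carry an envelope gene and are active in somatic cells of the gonad. Flies silence such elements with PIWI-interacting RNAs (piRNAs), small RNAs cut from long transcripts of piRNA clusters and loaded into the proteins Piwi, Aub and Ago3. In germ cells Aub and Ago3 amplify piRNAs by alternate cutting of sense and antisense transcripts, the ping-pong cycle. Somatic gonadal cells of the ovary lack that cycle and load piRNAs from the flamenco cluster into Piwi.

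In the reference genome (Ensembl annotation of BDGP6, which comes from another strain than the libraries) the 7 elements differ in copy number and in place. The annotation lists 51 insertions of gypsy12, 17 of gypsy4, 16 of gypsy2, 16 of gypsy6, 15 of gypsy3, 4 of gypsy7 and 3 of accord. Most are fragments, with a median length of 384 bp for gypsy12, 205 bp for gypsy3 and 230 bp for gypsy6. The element gypsy2 stands apart with a median of about 4010 bp (4009.5) and 8 insertions of at least 4 kb, against 1 to 4 such insertions in the other 6.

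Of the 51 gypsy12 insertions 29 lie on 2R. The longest gypsy2 insertion, 9764 bp on the minus strand at chrX:21658134-21667897, overlaps exonic sequence of the noncoding flamenco transcript (lncRNA:flam) and lies inside that gene. That locus spans 158841 bp on X from 21631891 to 21790731 and holds 3 insertions of gypsy6, 1 of gypsy2 and 1 of gypsy3. It holds 0 insertions of gypsy4, gypsy7, gypsy12 and accord. The longest gypsy6 insertion, 7654 bp at chr3L:27370557-27378210 on the minus strand, lies at Dbp80 outside its exons, and that of accord, 5225 bp at chr2R:12862330-12867554 on the plus strand, at CG17574 outside its exons. The longest gypsy4 insertion, 6720 bp at chr2R:3053083-3059802 on the minus strand, overlaps no annotated gene. For gypsy7 the longest is 4558 bp at chr4:1156958-1161515 on the minus strand, at CG32017 and Kif3C and outside their exons. The longest annotated gypsy12 span, 16993 bp at chr2R:5377467-5394459 on the plus strand and outside annotated genes, encloses 3 insertions of other elements, that of gypsy3 (13519 bp, chr2R:5583562-5597080, plus strand, no gene) encloses 2, and those of gypsy2 and gypsy7 enclose 1 each, so spans were not used as element lengths and shares are not compared per length.

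Together the 7 elements took between 2.07% (can) and 4.63% (bgcn) of transposon-mapping reads. The summed share was 4.35% in bam, 3.43% in sa and 2.68% in y w. The share of that sum taken by gypsy12 changed from library to library, at 22.2% in bam, 47.5% in bgcn, 51.0% in can, 18.1% in sa and 36.2% in y w. At the other end gypsy7 had between 9 and 105 reads per library.

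**Figure D1:**
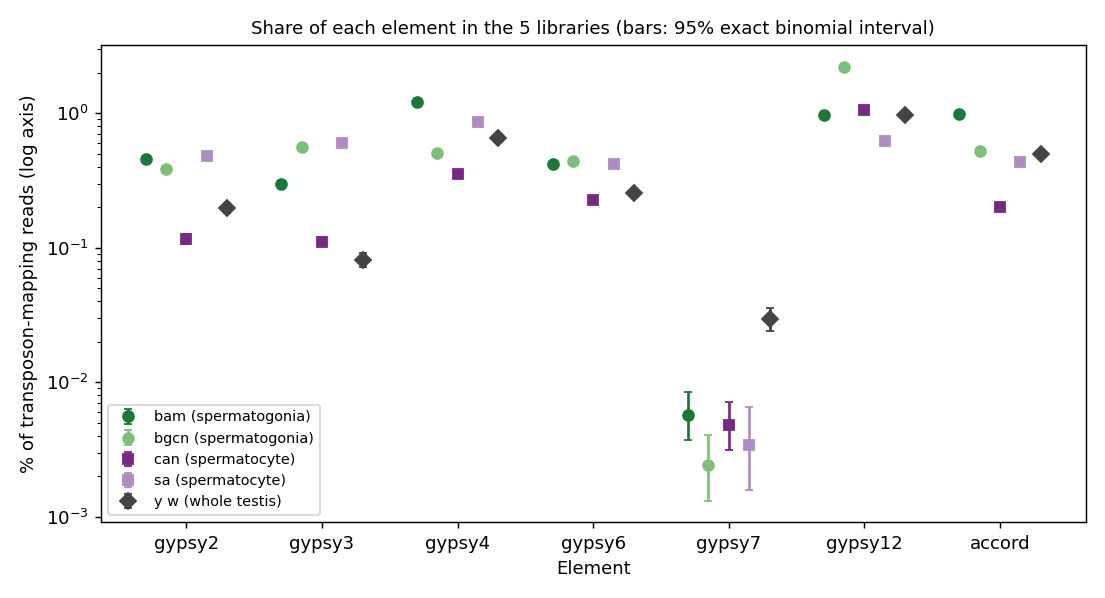
Share of transposon-mapping reads (percent, log axis) of each element in the y w library and in those of bam, bgcn, can and sa; points are libraries and bars are 95% exact binomial intervals. The can library is the lowest stage library for gypsy2, gypsy3, gypsy4, gypsy6 and accord, and y w stands above all 4 stage libraries for gypsy7.

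For gypsy12 the share was 0.964% in bam (4229 reads), 2.20% in bgcn (12759), 1.06% in can (5494), 0.619% in sa (1626) and 0.971% in y w (3464). The bgcn library was high and sa low, the groups overlapped, and the intervals of bam (0.935 to 0.993) and y w (0.939 to 1.00) could not be separated. For gypsy4 the share was 1.22% in bam (5345 reads), 0.509% in bgcn (2952), 0.354% in can (1840), 0.867% in sa (2278) and 0.658% in y w (2348). All 5 intervals of gypsy4 were separate, and its 2 highest libraries, bam and sa, belong to different stages.

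For accord the share was 0.989% in bam (4341 reads), 0.527% in bgcn (3060), 0.201% in can (1042), 0.436% in sa (1145) and 0.495% in y w (1767). By share it was the only one of the 7 whose stage groups did not overlap, with both spermatocyte libraries lower. Among all 114 elements tested, 51.8% had groups that did not overlap by share, so 1 of 7 lies below that background. By share, groups that did not overlap with spermatocytes lower made up 38.6% of the 114. After the TMM scaling described below the groups of accord overlapped (4165 rpm in bgcn, 4634 rpm in sa). With the authors' levels those of accord, gypsy2, gypsy6 and gypsy12 did not overlap, so the count depends on the scaling. The rest of the 114 elements were not counted in this way with those levels, so that count has no background here. Under the authors' factors the log2 fold changes (spermatocyte over spermatogonia) had a median of -0.88 over the 114 and -0.82 over the 7. Lower spermatocyte values under that scaling were thus not particular to the 7. The y w and bgcn intervals of accord (0.472 to 0.519 and 0.509 to 0.546) touched.

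Shares of gypsy2 were 0.457% in bam (2007 reads), 0.385% in bgcn (2237), 0.117% in can (606), 0.482% in sa (1267) and 0.196% in y w (700). The can and y w libraries were low, and the intervals of sa (0.456 to 0.509) and bam (0.438 to 0.478) overlapped. Shares of gypsy3 were 0.299% in bam (1312 reads), 0.563% in bgcn (3268), 0.111% in can (578), 0.598% in sa (1570) and 0.0810% in y w (289). The y w and can libraries were again the lowest, and the intervals of sa (0.568 to 0.628) and bgcn (0.544 to 0.583) overlapped.

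The steadiest of the 7 was gypsy6, whose highest share was 1.94 times its lowest over the 5 libraries, against 3.44 (gypsy4) to 12.2 (gypsy7) for the other 6. Its shares were 0.417% in bam (1829 reads), 0.443% in bgcn (2569), 0.228% in can (1185), 0.421% in sa (1105) and 0.254% in y w (908). The bam, bgcn and sa libraries could not be separated in order (intervals 0.398 to 0.436, 0.426 to 0.460 and 0.396 to 0.446), and can and y w were lower. For gypsy7 the share was 0.00570% in bam (25 reads), 0.00241% in bgcn (14), 0.00481% in can (25), 0.00343% in sa (9) and 0.0294% in y w (105). Apart from y w its intervals all overlapped (0.00369 to 0.00841 in bam, 0.00132 to 0.00405 in bgcn), and the ratio of bam to bgcn given further on was the only stage pair tried in which counting error left the 2 libraries apart.

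Whether the elements differ between germline stages was asked with edgeR's quasi-likelihood test on the read counts after TMM scaling, which sets levels relative to the typical element. None of the 7 passed an adjusted p of 0.05, while 10.5% of all 114 elements tested did, 10 of them higher and 2 lower in spermatocytes. With the authors' factors that split was 2 higher and 8 lower. At an unadjusted edgeR p under 0.05 there were also 0 of the 7, against 23 of all 114 elements. DESeq2 called 0 of the 7 and 17 of all 114. The median log2 fold change of the 7 elements, spermatocyte over spermatogonia, was -0.05, as it was for all 114 elements (-0.05).

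The largest difference was that of accord, at 6153 ± 2812 against 3606 ± 1453 TMM-scaled rpm (SD, n = 2 each). Its log2 fold change was -0.79 (SE 0.79, edgeR adjusted p = 0.654) with a 95% interval from -2.35 to 0.76. For gypsy12 the spermatogonia level was 12648 ± 6670 rpm and the spermatocyte level 10088 ± 4960 rpm, which is -0.35 on the log2 scale (SE 0.63, edgeR adjusted p = 0.837). For gypsy7, at 33.0 ± 19.7 and 49.1 ± 18.0 rpm, it was 0.57 (SE 1.01, edgeR adjusted p = 0.837). These differences were within the spread between the 2 libraries of a group.

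The other 4 lay closer to 0. Their log2 fold changes were -0.06 for gypsy2, 0.15 for gypsy3, -0.05 for gypsy4 and 0.07 for gypsy6, each with an edgeR adjusted p of 0.974. The 95% intervals ran from -1.78 to 1.66 for gypsy2, from -1.52 to 1.83 for gypsy3, from -1.46 to 1.36 for gypsy4 and from -1.61 to 1.76 for gypsy6. Changes of 2-fold in either direction thus remain inside the intervals of these 4. For 5 of the 7 the sign changed with the scaling, and for accord and gypsy12 it was negative under every scaling run. With the authors' factor per library all 7 log2 fold changes were negative, from -1.59 (accord) to -0.25 (gypsy7), and the median over all elements moved to -0.88. With library totals 1 of 7 was positive, and 0 of 7 passed under either scaling.

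**Figure D2:**
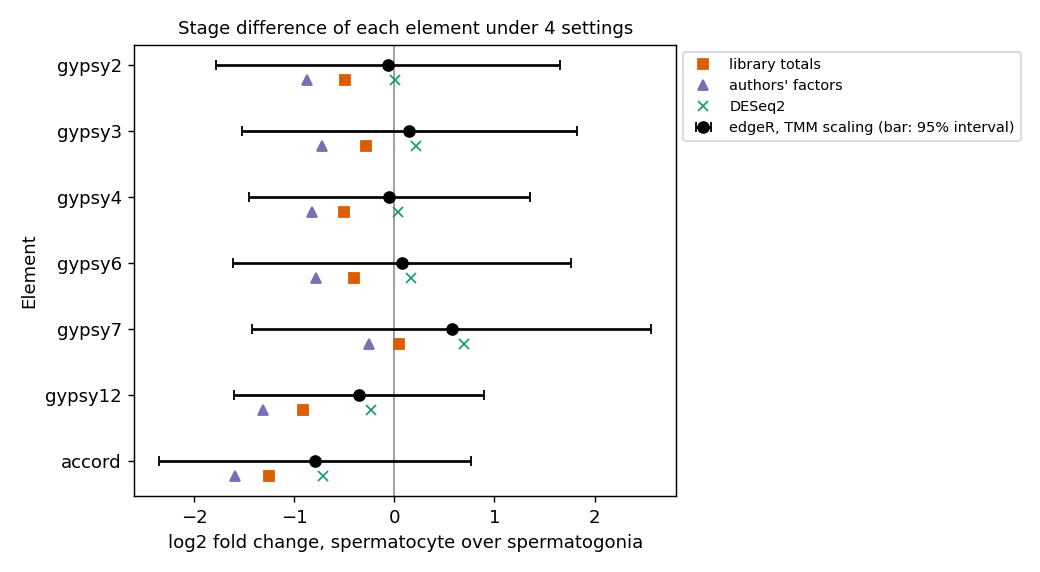
Log2 fold change between spermatocyte and spermatogonia libraries for each element; black points are edgeR with TMM scaling and bars its 95% intervals, coloured marks are the values with library totals, the authors' factors and DESeq2. Every interval spans 0, and the authors' factors place all 7 elements below 0.

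Set beside relatives, 4 other numbered gypsy elements in the tables (gypsy, gypsy5, gypsy8 and gypsy10) also had 0 calls, with a median log2 fold change of 0.39. The lowest of these was gypsy5 at -2.47 (SE 1.04, edgeR adjusted p = 0.135), whose reads were 1714 in bam, 2829 in bgcn, 167 in can and 219 in sa. Its 2 spermatocyte libraries were both below its 2 spermatogonia libraries. For accord2, the namesake of accord, the log2 fold change was -1.22 (SE 1.15, edgeR adjusted p = 0.654). Of 37 other gypsy-family LTR elements, 2 rose (Tirant and opus), 1 fell (HMS-Beagle) and 34 did not pass, with a median of -0.23. These 3 kept their direction under the other scalings, but with the authors' factors Tirant (edgeR adjusted p = 0.0652) and opus (0.0543) did not pass, and Tirant did not pass with library totals (0.0957) or DESeq2's size factors in edgeR (0.0609). Tirant also missed the threshold without bam, bgcn or sa (edgeR adjusted p = 0.187, 0.393 and 0.0555), and HMS-Beagle without bam or sa (0.349 and 0.302).

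The 2 libraries of a stage also differed from each other. Between the spermatocyte libraries 5 of the 7 elements had a higher share in sa than in can, and 4 were at least 2-fold higher, against 24.6% of all 114 elements. None of the 7 was at least 2-fold lower, and 41.2% of all elements differed by that much in either direction. The ratio of sa over can was 5.37 for gypsy3 (4.88 to 5.92), 4.13 for gypsy2 (3.75 to 4.56), 2.45 for gypsy4 (2.30 to 2.60) and 2.17 for accord (2.00 to 2.37). For gypsy6 it was 1.84 (1.70 to 2.00). The opposite order held for gypsy12 at 0.585 (0.553 to 0.619), and for gypsy7 the ratio of 0.712 (0.292 to 1.58) was not separable from 1. After TMM scaling 3 of the 7 were at least 2-fold higher in sa, against 15.8% of all elements. These are ratios of 1 library to 1 library, with no replicate check.

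Between the spermatogonia libraries the 7 elements split. The share in bam over that in bgcn was 2.40 for gypsy4 (2.29 to 2.51), 2.36 for gypsy7 (1.18 to 4.92), 1.88 for accord (1.79 to 1.97) and 1.19 for gypsy2 (1.12 to 1.26). It was 0.439 for gypsy12 (0.423 to 0.454) and 0.531 for gypsy3 (0.498 to 0.566), and 0.942 for gypsy6 (0.887 to 1.00). A difference of at least 2-fold in either direction was seen in 3 of the 7, and in 33.3% of all 114 elements. The element gypsy12 was thus high in bgcn within spermatogonia and in can within spermatocytes, where gypsy4 and accord were low.

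Elements typical of somatic gonadal cells were, like the summed share of the 7, lowest in can. A list of 8 such elements (gypsy, gypsy5, gypsy10, ZAM, Idefix, gtwin, Quasimodo and Tabor) held 5.93% of reads in bam, 5.72% in bgcn, 2.09% in can, 4.46% in sa and 3.36% in y w. All 8 were detected in every library, the rarest with 147 reads in can. The low in can was not particular to them. The 37 other gypsy-family elements, a list that includes these 8, held 43.2% in bam, 42.5% in bgcn, 24.4% in can, 34.1% in sa and 33.7% in y w. The summed share of the other numbered gypsy elements was also lowest in can, at 0.329%. Singly they differed, with gypsy lowest in y w (0.130%) and gypsy8 highest in can (0.0162%). The part of somatic cells in the values of the 7 elements was not tested.

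**Figure D3:**
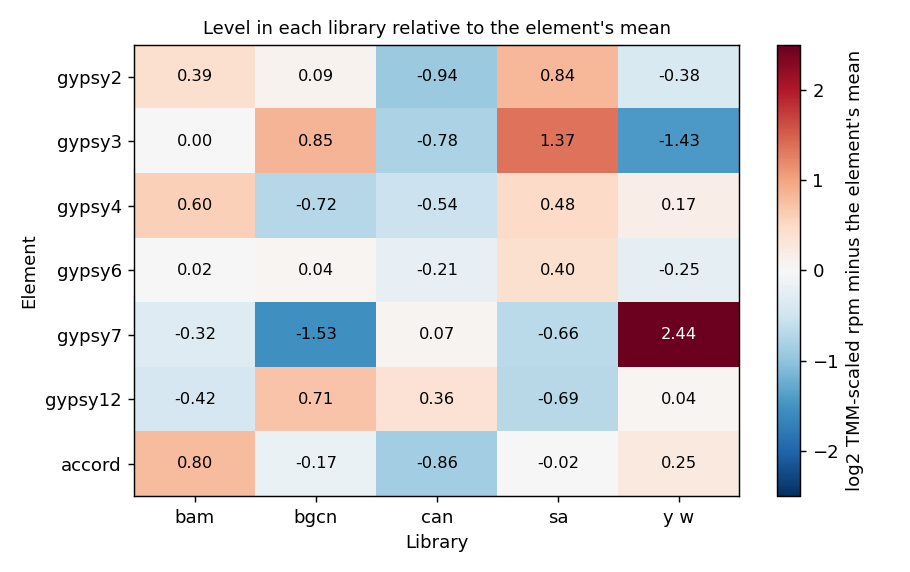
Level of each element in each library relative to the element's own mean over the 5 libraries, in log2 TMM-scaled rpm; red is above and blue below the mean. The gypsy12 row is positive in bgcn and can, the gypsy4 and accord rows are negative there, and the y w column is highest for gypsy7 (2.44) and lowest for gypsy3 (-1.43).

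The patterns over the 5 libraries were compared by the root mean square difference of centred log2 levels. By this measure few of the 7 were close to each other. The nearest pair were gypsy4 and accord at 0.37, and gypsy2 and gypsy6 were next at 0.42. The elements nearest to accord were Circe (0.17), mdg1 (0.26) and Doc4-element (0.31), those nearest to gypsy6 were invader6 (0.17) and invader2 (0.19), with the third at 0.23, and those nearest to gypsy2 were hopper (0.20), HMS-Beagle2 (0.26) and mdg1 (0.32).

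For gypsy4 the nearest were Doc4-element (0.20), F-element (0.27) and hopper (0.31), and for gypsy12 they were transib2 (0.28), GATE (0.32) and TAHRE (0.33). The nearest patterns thus belonged to LTR elements, LINE-like elements and DNA transposons. For gypsy3 (HMS-Beagle2 0.45, Tabor 0.55 and Dvir-Tv1 0.65) and gypsy7 (rooA 0.73, Fw3 0.90 and Fw2 0.93) no element came as close. That rested on the y w library: over the 4 stage libraries alone the nearest to gypsy3 was Tc1-2 at 0.23 and the nearest to gypsy7 was Doc at 0.32, and 1 of the 3 nearest elements was shared for each. The median distance to all elements was between 0.79 (gypsy6) and 1.48 (gypsy7).

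The y w testis holds all stages, from stem cells to sperm, and 2 of the 7 elements lay outside the range of the 4 stage libraries by share, against 19.3% of all 114 elements. For gypsy7 the y w share was 5.16 times that of the highest stage library, bam (3.31 to 8.34). It was the only one of the 114 elements (0.877%) at least 5-fold above the highest stage share, with G-element next at 1.64. For gypsy3 the y w share was 0.728 of that of the lowest stage library, can (0.630 to 0.840). Both stayed outside the range after TMM scaling and with the authors' factors. For gypsy6 the y w level of 2862 TMM-scaled rpm lay just under the lowest stage level of 2932 rpm, whereas its share was within the range. That made 3 of 7 outside by TMM-scaled level, against 21.9% of all elements. The other 4 elements were within the range under all 3 scalings.

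The 6 elements listed in the combined table differed among themselves in the aub pair. By the authors' normalisation, whose basis the sources used here do not give, the levels of gypsy2, gypsy3, gypsy4 and gypsy6 in the aub mutant were close to those of the heterozygote, whereas those of gypsy12 and accord were far lower. There was 1 library per genotype, so no test was made, and stock and balancer differ with the genotype. As shares of each library the ratios of mutant to heterozygote were 8.12 for gypsy2, 7.81 for gypsy3, 6.60 for gypsy4 and 8.33 for gypsy6, against 0.141 for gypsy12 and 0.830 for accord. In all, 2 of the 6 elements were at or below 0.5 of the heterozygote level, against 75.6% of all 86 elements. At or below 0.25 were also 2 of the 6, against 69.8% of the 86. The sum over all 86 was at 0.123 of the heterozygote level. Every listed element had a level of at least 35.5 in the aub heterozygote and 54.3 in the ago3 heterozygote. In each mutant the lowest level was 0. How elements came to be listed is not given. A list chosen by heterozygote level would tilt the percentages of the 86 towards lower ratios, which was not tested.

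For gypsy6 the aub heterozygote had 324 reads (normalised level 295) and the mutant 271 (level 301), a ratio of 1.02 (0.867 to 1.21). For gypsy2 they numbered 201 and 164, with a ratio of 0.997 (0.806 to 1.23), and for gypsy3 246 and 193, with a ratio of 0.959 (0.790 to 1.16). In these 3 elements counting error does not separate mutant from heterozygote. For gypsy4, with 765 and 507 reads, the ratio was 0.810 (0.723 to 0.907). Ranked from the highest ratio of the 86 elements, gypsy6, gypsy2, gypsy3 and gypsy4 stood at 7, 8, 9 and 12.

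In contrast gypsy12 went from 352 heterozygote reads to 5 mutant reads, a level 57.6-fold lower (24.4 to 178). Its ratio of 0.0174 was below the median of all 86 elements (0.0752). For accord the reads numbered 132 and 11, a level 9.82-fold lower (5.31 to 20.1) with a ratio of 0.102, close to that median. As a share of the library the ratio of accord was 0.830 (0.404 to 1.53), which counting error does not separate from 1. By level gypsy12 came next after gypsy4 among the 6 in the heterozygote and last in the mutant.

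The ago3 pair showed another order, with all 6 elements below the heterozygote level. In the ago3 mutant 4 of the 6 elements were at or below 0.5 of the heterozygote level, against 91.9% of all 86 elements, and gypsy3 (0.502, interval 0.430 to 0.586) lay just above that bound. At or below 0.25 were 2 of the 6, against 53.5% of the 86. The sum over all 86 was at 0.211. The limit of the list given for the aub pair applies to these percentages too. For gypsy2 the ago3 heterozygote had 378 reads and the mutant 318, a ratio of levels of 0.552 (0.474 to 0.642). For gypsy3 they numbered 385 and 295, for gypsy6 361 and 224 with a ratio of 0.407 (0.343 to 0.482), and for gypsy4 1101 and 520 with a ratio of 0.310 (0.279 to 0.344). All 4 ratios lay above the median of the 86 elements (0.233) and all 4 intervals lay below 1.

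For gypsy12 there were 794 heterozygote and 193 mutant reads, a level 6.27-fold lower (5.35 to 7.38) and a ratio of shares of 0.756 (0.643 to 0.886). For accord they numbered 217 and 20, a level 16.5-fold lower (10.5 to 27.6), which placed it at 76 of the 86 elements from the highest ratio, and the ratio of its shares was 0.287 (0.172 to 0.454). The order of these 2 elements was thus opposite in the 2 mutants, with gypsy12 lowest in the aub mutant and accord lowest in the ago3 mutant. In 5 of the 6 elements the ratio was higher for aub than for ago3, the exception being gypsy12, against 34.9% of all 86 elements. For accord the intervals of the 2 ratios overlapped (0.0496 to 0.188 for aub, 0.0362 to 0.0957 for ago3). The aub and ago3 pairs have separate heterozygotes, and the difference between the 2 effects was not tested.

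**Figure D4:**
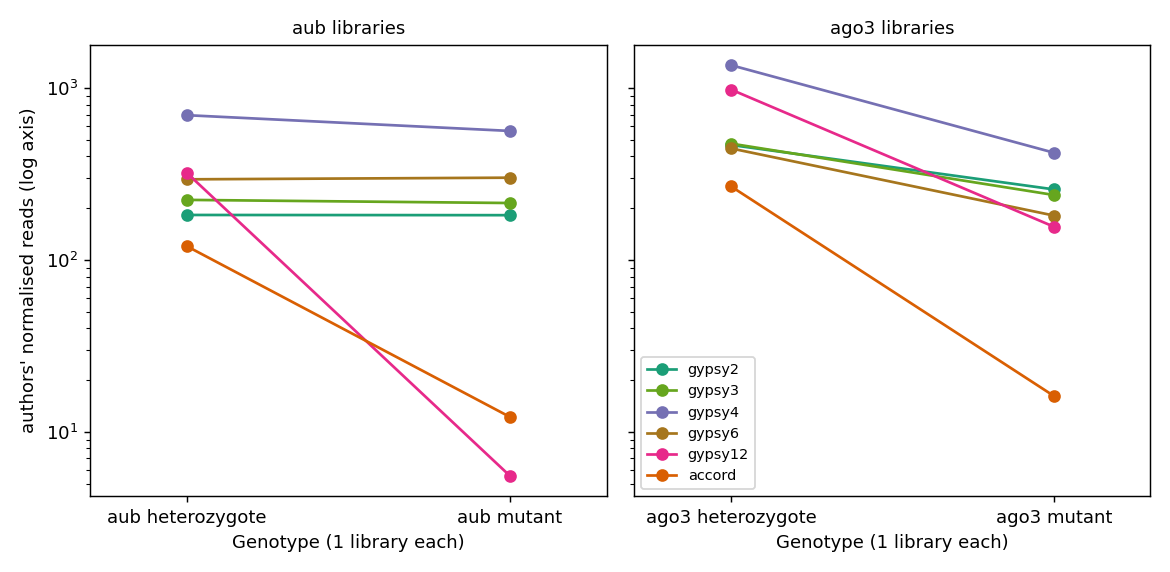
Authors' normalised reads (log axis) of the 6 listed elements in heterozygote and mutant testes, 1 library each, for aub (left) and ago3 (right); a line joins the values of 1 element. In the aub panel gypsy2, gypsy3, gypsy4 and gypsy6 run nearly level while the lines of gypsy12 and accord slope steeply down, and in the ago3 panel all 6 are lower in the mutant.

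As shares of the reads left in each library, gypsy2, gypsy3, gypsy4 and gypsy6 together made up 1.83% of the combined table for heterozygous and 13.5% for mutant aub testes. For ago3 these shares were 2.17% and 4.11%. The share was higher in the mutant for 4 of the 6 elements in either pair, against 37.2% of the 86 for aub and 54.7% for ago3. It was at or below 0.5 of the heterozygote share for gypsy12 in the aub pair, against 46.5% of the 86, and for accord in the ago3 pair, against 17.4%. The 8 somatic-type elements, with at least 37 reads each in every library, made up 3.41% and 21.4% in the aub pair and 3.92% and 6.31% in the ago3 pair. The part of somatic cells in these shares was not tested.

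Of the 86 elements 21 stayed above 0.5 of the heterozygote level in the aub mutant, and gypsy2, gypsy3, gypsy4 and gypsy6 were among them. The others were 7 somatic-type elements (Idefix, gypsy, ZAM, gtwin, gypsy10, Tabor and gypsy5) and 10 more, among them blood, Stalker, rover, Stalker4, Stalker2, Stalker3T, HMS-Beagle2, HeT-A and springer. The remaining somatic-type element, Quasimodo, was at or below 0.5 in both mutants, with an aub ratio of 0.418. The 32 other gypsy-family elements had a median aub ratio of 0.401, and the 8 somatic-type elements one of 0.973. In the ago3 mutant the medians of these lists were 0.303 and 0.413. The values of gypsy12 and accord were below both lists' medians in both mutants.

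The annotation of flamenco was set beside the aub ratios as a description. Of the 20 annotated elements above 0.5 of the heterozygote level, 14 had an insertion within the annotated flamenco transcript of the reference genome (70.0%), gypsy2, gypsy3 and gypsy6 among them and gypsy4 not. Of the 55 annotated elements at or below 0.5, 9 had one (16.4%), and gypsy12 and accord had none. The classes also differed in family, with 15 other gypsy-family elements among the 21 above 0.5 and 17 among the 65 at or below it. The parts of family and of flamenco insertions in the ratios were not tested. Which reads came from these copies was not tested either.

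**Figure D5:**
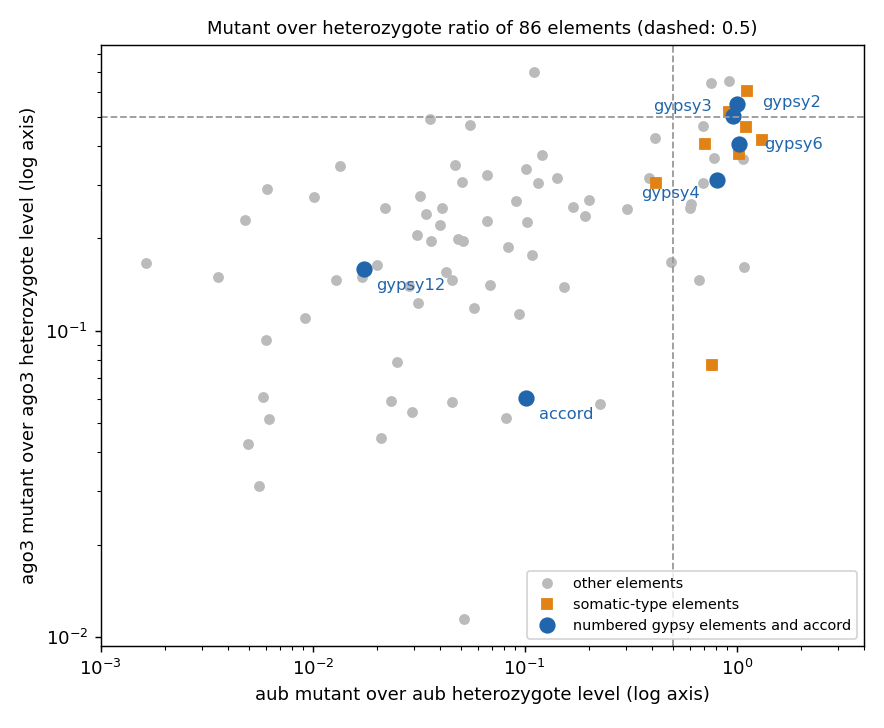
Ratio of mutant to heterozygote level of the 86 listed elements, aub on the x axis and ago3 on the y axis (both log axes, 1 library per genotype; dashed lines at 0.5, and mutant counts of 0 drawn at the floor of 3 reads). The points of gypsy2, gypsy3, gypsy4 and gypsy6 lie at the right among the somatic-type elements, gypsy12 lies at the left and accord at the lower middle.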

How the data were processed

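Hand-dissected testes were used for TruSeq small RNA libraries, per the labels' protocols. Bowtie version 1 and DESeq2 are named without a role, per the submitters' processing notes. How multiply mapping reads were treated, the basis of the authors' factors, the read lengths and the genome build are details the sources used here do not give. Reads shared between related elements could therefore be counted for either. For y w and the 4 stage libraries the authors deposited raw counts per transposon and a normalised signal, equal to the count times 1 factor per library. For the aub and ago3 libraries the combined deposited table holds a normalised signal. Each library's values were found to be whole multiples of a common step (86 elements, tolerance 0.001 reads), from which reads were worked back. Every element listed there has a level of at least 35.5 in the aub heterozygote and 54.3 in the ago3 heterozygote. Counts over all read lengths from 15 to 44 nt were deposited for these 4 libraries and used only in the closing section.

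Stage groups were compared with edgeR 4.0.16 under R 4.3.3, by its two-sided quasi-likelihood test after TMM scaling. Elements needed 10 or more counts in 2 or more of the 4 libraries, with Benjamini-Hochberg adjustment over the 114 elements that passed. All 7 elements passed that filter. The biological coefficient of variation was 0.577. Standard errors were derived from the fold change and its F statistic, and 95% intervals from these errors. The script was tested on simulated counts. Alternatives were DESeq2 1.42.0, its size factors, library totals, the authors' factors, no filter, and leaving out each library. Mutants were compared as ratios of normalised levels with conditional exact binomial intervals and a floor of 3 reads for a count of 0. Patterns used log2 TMM-scaled rpm with a prior count of 1, and the 3 nearest elements are named. The elements, lists and rules were chosen with earlier results of these data known. An element whose name is a bare number was counted but is not named. No element sequence was used.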

Additional observations from a re-analysis of the deposited data

Results flagged for a closer look

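The tables over all read lengths from 15 to 44 nt lie outside the comparisons above. There, shares of transposon-mapping reads differed between a mutant and its heterozygote in both directions, with 95% exact binomial intervals that did not overlap. Libraries held 274660 to 1742807 such reads, so these intervals were narrow. The share of all 179 elements with separate intervals is not given here. In the ago3 mutant gypsy7, which the combined table does not list, took 0.709% (2709 reads) against 0.317% (872 reads) in the heterozygote. In the same pair gypsy2 took 0.524% against 0.421%, gypsy3 0.653% against 0.480%, gypsy6 1.46% against 1.05% and accord 0.609% against 0.426%. In the aub mutant gypsy6 took 1.97% against 1.90% and accord 0.980% against 0.906%. Lower in the mutant were, in the aub pair, gypsy3 (0.796% against 0.911%), gypsy7 (1.05% against 1.09%) and gypsy12 (0.558% against 0.585%), and in the ago3 pair gypsy4 (0.638% against 0.699%). These tables hold many reads of 15 to 17 nt, shorter than piRNAs, at 97.0% (mutant) and 91.2% (heterozygote) of the sense reads for aub, and 82.5% (mutant) and 49.7% (heterozygote) for ago3. The part of these short reads in the shares was not tested.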

How the results depend on the processing

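Under every alternative run, 0 of the 7 elements passed between stages. The count of all elements called was 12 (10 higher and 2 lower), 17 with DESeq2 (11 and 6), 8 with its size factors (6 and 2), 10 with the authors' factors (2 and 8) and 6 with library totals (4 and 2), and it ran from 5 to 12 when a library was left out (5 without bam, 7 without sa). Signs of these uncalled log2 fold changes turned with the setting. DESeq2 and its size factors in edgeR gave 0.010 for gypsy2 and 0.033 for gypsy4, library totals -0.28 for gypsy3 and -0.41 for gypsy6, and the authors' factors -0.72 for gypsy3, -0.79 for gypsy6 and -0.25 for gypsy7. Without 1 library they ran from -0.91 to 0.58 for gypsy2, -0.9997 (without sa) to 0.87 for gypsy3, -0.56 to 0.75 for gypsy4, 0.03 to 0.36 for gypsy6, 0.06 to 1.34 for gypsy7, -0.95 to 0.38 for gypsy12 and -1.20 to -0.23 for accord. The summed share of the 7, spermatocyte over spermatogonia, was 0.612, and 0.872 with TMM-scaled and 0.472 with the authors' levels (0.462 to 0.763 without 1 library, lowest without sa). In shares of combined reads, 1 element was at or below 0.5 in the aub mutant (gypsy12) and 1 in the ago3 mutant (accord). The share ratios of gypsy4 in the aub pair (6.60) and of gypsy2 (2.62), gypsy3 (2.38), gypsy4 (1.47) and gypsy6 (1.93) in the ago3 pair lay above 1, whereas those of accord (0.830) and gypsy12 (0.141) in the aub pair and of accord (0.287) and gypsy12 (0.756) in the ago3 pair lay below 1. With 0.25 in place of 0.5 the counts were 2 and 2. In the all-length tables, chosen after seeing the data, they were 0 and 0. Depth limits gypsy7 most, with 9 to 25 reads in the stage libraries, and gypsy12 and accord in the aub mutant, with 5 and 11. No paired analysis was possible because each library is the only one of its genotype.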
